A study of Mus musculus with 17 samples.

Results

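The genes described here form the IL-6 family to STAT3 signalling chain of the lung's alveolar type 2 (AT2) cells, the epithelial cells that make surfactant. They are 10 genes: the receptor genes Il6st, Il6ra and Osmr, the transcription factor gene Stat3, the feedback inhibitor genes Socs1, Socs2, Socs3 and Cish, and the kinase genes Pim1 and Pim3. The set was chosen by measured values, namely the lower Socs3 and Pim1 levels after ISRIB, and each symbol was matched to the gene's row in both count tables, which hold 43430 gene IDs. All 10 were found, and 9 of the 10 had enough counts to be tested in each comparison, the exception being Socs1. Because the ISRIB comparison entered the choice, the members' values there are a description with no test. The bleomycin comparison was not part of that rule and is tested. Members were still chosen with earlier results of these data known, so these tests may not be fully independent of the choice.

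RNA was sequenced from 17 libraries of AT2 cells sorted by flow cytometry from C57BL/6J mice aged 2 months. In the first experiment, naive mice received either vehicle (saline in the titles, 4 libraries) or ISRIB (4 libraries), an inhibitor of the integrated stress response, and cells were sorted 24 hours later; these libraries were made from 3 ng of RNA with poly(A) selection. In the second, 4 libraries came from naive mice and 5 from mice sorted 14 days after bleomycin, an agent used to cause lung injury and fibrosis; these were made from 0.35 ng with a total-RNA kit, and the labels give vehicle as the treatment of all 9. The labels used here give no dose and do not say whether each library is 1 mouse or a pool, so the p-values measure the spread between libraries, and in bulk libraries fewer cells of a type and less RNA per cell cannot be told apart.

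Cytokines of the IL-6 family bind receptor chains such as IL6RA, OSMR or LIFR, which act together with the shared chain gp130, the product of Il6st. JAK kinases bound to gp130 phosphorylate STAT3, which enters the nucleus and switches on target genes, among them Socs3. SOCS3 then binds gp130 and the JAKs and shuts the signal down, while SOCS1 acts mainly on interferon signalling and CISH and SOCS2 mainly on signals through STAT5. The PIM kinases are constitutively active survival kinases whose amount is set largely by transcription and RNA stability, and Pim1 is a known STAT target. In the alveolar epithelium this pathway is known for protection during lung injury and for acute-phase protein production.

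STAT proteins bind palindromes of the form TTCNNNGAA, which reads the same on both strands, so promoter windows were searched for it and for the one-letter departure TTANNNGAA on either strand (TTCNNNTAA on the other). The 2 patterns cannot match at the same place. RefSeq windows (GRCm38.p6, 250 bases before to 50 after each start) were at hand for 9 members, in 10 windows. TTCNNNGAA was in the windows of 2 of these members, Socs3 and Cish, and in 8.3% of all 32851 windows. The departure was in those of 4 members, Osmr, Il6st, Stat3 and Socs1, and in 10.4% of all windows. Neither pattern was in the windows of Pim1, Pim3 or Il6ra. The stretches of the 3 members that rose after bleomycin are shown 5′ to 3′ on the gene's strand, with the match in capitals.
Socs3 (chr11:117969487-117969545, minus strand): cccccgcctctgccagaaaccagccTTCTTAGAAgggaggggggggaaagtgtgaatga
Cish (chr9:107296659-107296678, plus strand): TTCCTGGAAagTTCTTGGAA
Osmr (chr15:6874330-6874358, minus strand): ccccggcgctTTCCCGTAActcccgcccc
The Socs3 match begins 154 bases before the RefSeq start and lies in an intron of the longer GENCODE gene model. The Osmr match begins 35 bases before its start, and the 2 Cish matches begin at bases 1 and 12 after its start. These lie in exons of GENCODE models that begin further upstream. The other departures read TTACGGGAA 120 bases before the Il6st start, TTCCGCTAA 239 bases before the Stat3 start and TTAGAGGAA 144 bases before the Socs1 start. A match describes the letters in the window and says nothing of binding in these cells.

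The ISRIB experiment had 10493574 to 15727139 total counts per library and the bleomycin experiment 3295257 to 6333166, so low-level genes are measured less precisely in the second set. Spread between replicates beyond counting (edgeR's coefficient of variation) was 7.66% in the first and 21.1% in the second. Naive libraries had counts for 17108 to 19763 genes and bleomycin libraries for 13940 to 17112. At nearly equal totals, naive 1 had 19763 and bleomycin 4 had 13940. The part of this difference in the members' changes was not tested. No replicate pair agreed within counting error. The labelled cell type was borne out by 10 AT2 markers, summed in CPM (the usual depth-scaled count, here over the library's effective size). The sum was 177000 to 189000 CPM in the poly(A) set. In the total-RNA set it was 80500 to 87900 CPM in naive and 50600 to 89200 CPM in bleomycin libraries. Lymphocyte markers summed to at most 1.01 CPM and neutrophil markers to at most 1.80 CPM in any library. Airway markers stood far higher, at 3560 to 3940 CPM in vehicle and 2230 to 3870 CPM in ISRIB libraries. The airway gene Scgb1a1 alone averaged 3460 CPM in vehicle libraries. In the total-RNA set airway markers summed to 453 to 943 CPM.

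Per length of exon, the members of naive AT2 cells spanned from levels above most genes tested to the edge of detection. The length used is that of all annotated exons of a gene merged, not of the transcript made. The order of genes therefore depends on the annotation too, and the ranges given hold only the spread between libraries. In the vehicle libraries Pim3 (36.7 ± 8.47 CPM per kb, SD, n = 4), Socs3 (35.4 ± 7.30), Stat3 (32.7 ± 1.6), Il6st (29.4 ± 0.87) and Socs2 (25.1 ± 3.08) stood highest. Ranges of neighbours in this order overlapped, except between Stat3 and Il6st. Then came Pim1 (14.3 ± 2.56 CPM per kb), Osmr (8.35 ± 1.14) and Cish (2.27 ± 0.27), each clear of its neighbours. Il6ra (0.36 ± 0.08 CPM per kb) and Socs1 (0.22 ± 0.05) were lowest and overlapped. The level of Stat3 exceeded that of 91.1% of the genes tested, while that of Il6ra exceeded 5.8%. AT2 cells carried far more transcript for the shared receptor chain than for the IL-6-specific one. After ISRIB Socs3 (20.8 ± 0.73 CPM per kb) stood between Socs2 and Osmr in the order, clear of both.

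In the naive total-RNA libraries the members also ran from Stat3 (27.3 ± 1.04 CPM per kb, n = 4), Il6st (23.6 ± 1.71), Socs3 (18.4 ± 4.37) and Socs2 (17.3 ± 3.59) at the top to Il6ra (0.34 ± 0.14) and Socs1 (0.07 ± 0.05) at the bottom. Pim3 (11.3 ± 2.9), Pim1 (8.23 ± 0.66) and Osmr (7.57 ± 1.04) were neighbours with overlapping ranges, above Cish (2.25 ± 0.27), which was clear of its neighbours. Stat3 and Il6st did not overlap each other, while Il6st overlapped Socs3, Socs3 overlapped Socs2 and Socs2 overlapped Pim3. After bleomycin Socs3 (28.2 ± 2.62 CPM per kb, n = 5) lay between Stat3 (30.3 ± 3.04) and Il6st (21.6 ± 2.65) and overlapped both. The 2 sets differ in kit, RNA input and depth, so levels were not compared between them.

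**Figure D1:**
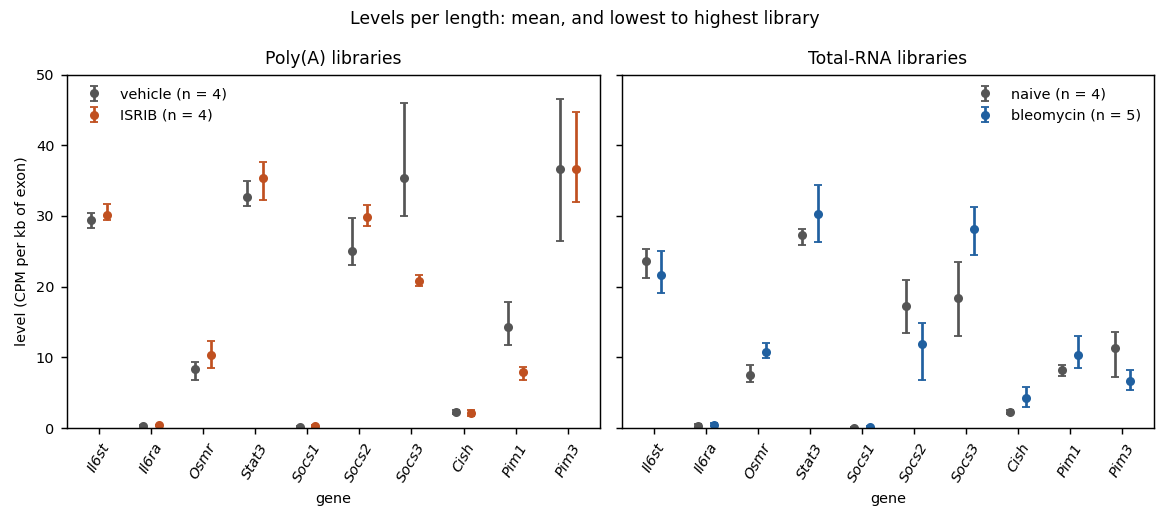
Level of each of the 10 genes in CPM per kb of exon (y axis, linear), in the 4 poly(A) vehicle and 4 ISRIB libraries (left) and the 4 naive and 5 bleomycin libraries (right). Points are means and bars run from the lowest to the highest library. Il6ra and Socs1 lie near 0 in every group, and the ISRIB range of Socs3 lies below its vehicle range.

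The ISRIB comparison addressed what differs in AT2 cells of uninjured mice 24 hours after an inhibitor of the integrated stress response. Socs3 and Pim1 were lower in every ISRIB library than in any vehicle library, which is why the set was chosen. Stat3 and Il6st, the transcription factor and the shared receptor chain, were within 1.08-fold of vehicle on average. Osmr and Socs2 had higher means after ISRIB, with overlapping groups.

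Of the 9 members with enough counts, 2 passed an adjusted p of 0.05 (edgeR, Benjamini-Hochberg over all genes), both lower, where 2.2% of the 12054 genes tested passed in either direction and 1.1% were lower. Groups did not overlap for the same 2 members, as for 8.65% of all genes (4.26% higher, 4.39% lower). Since these 2 led to the choice, nothing is read from either count. The members' median log2 fold change was 0.04 and that of all genes tested was 0.00.

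Socs3, the STAT3-induced inhibitor of gp130 signalling, had 98.7, 133, 90.6 and 86.7 CPM in vehicle libraries 1 to 4 and 61.5, 58.2, 62.4 and 58.5 CPM in ISRIB libraries 1 to 4. The ISRIB libraries lay within a narrow band, while vehicle 2 stood above the other vehicle libraries. Group means were 102 ± 21.1 and 60.2 ± 2.11 CPM (SD, n = 4 each), which is -0.76 (SE 0.10) as a log2 fold change. It was -0.61 without vehicle 2.

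Pim1 showed the same order of groups. It had 45.2, 59.8, 47.5 and 39.3 CPM in vehicle 1 to 4 and 26.9, 29.2, 27.7 and 22.7 CPM in ISRIB 1 to 4. Vehicle 2 was again the highest and vehicle 4 the lowest vehicle library, and all ISRIB libraries were below them. The log2 fold change was -0.85 (SE 0.11), or -0.72 without vehicle 2. The other kinase gene, Pim3, averaged 89.0 ± 20.6 CPM in vehicle and 89.1 ± 14.2 CPM after ISRIB, and the groups overlapped throughout.

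The other feedback genes did not follow Socs3. Socs2, an inhibitor of growth hormone and STAT5 signalling, had 220, 227, 228 and 283 CPM in vehicle 1 to 4 and 287, 273, 301 and 278 CPM in ISRIB 1 to 4. Vehicle 4 stood apart from the other vehicle libraries and lay among the ISRIB values, so the groups overlapped. Its log2 fold change was 0.25 (SE 0.07). Cish averaged 14.6 ± 1.73 CPM in vehicle and 14.0 ± 2.39 CPM after ISRIB. Socs1, an inhibitor of interferon signalling, had 5 to 11 counts in the vehicle libraries and 7 to 15 in the ISRIB libraries, too few to test.

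Among the receptor genes, Osmr, which encodes the oncostatin M receptor chain, had 101, 107, 81.9 and 114 CPM in vehicle 1 to 4 and 104, 118, 134 and 149 CPM in ISRIB 1 to 4. ISRIB 2, 3 and 4 lay above all vehicle libraries and ISRIB 1 did not. Its log2 fold change was 0.32 (SE 0.10). Il6st went from 326 ± 9.62 to 335 ± 11.4 CPM and Stat3 from 312 ± 15.2 to 337 ± 22.7 CPM. Il6ra stayed at 2.17 to 4.16 CPM over all 8 libraries.

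**Figure D2:**
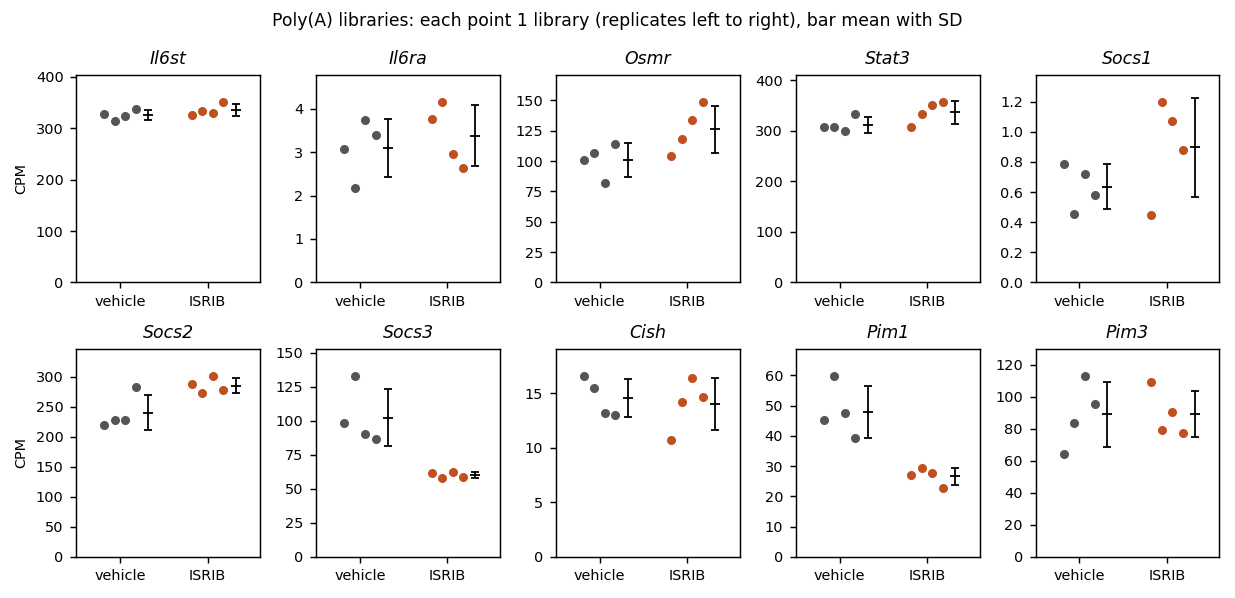
CPM of each of the 10 genes (y axes, linear, from 0) in the 4 vehicle and 4 ISRIB poly(A) libraries. Each point is 1 library in replicate order, and the bar is the mean with SD. The groups separate for Socs3 (58.2 to 62.4 against 86.7 to 133 CPM) and Pim1 (22.7 to 29.2 against 39.3 to 59.8 CPM), and overlap for the other 8 genes.

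Around the members, few pathway genes passed the test after ISRIB. None of the 2 IL-6 family cytokine genes, 4 further receptor genes, 4 JAK genes, 5 other STAT genes, 5 other SOCS and PIM genes, 8 PIAS and phosphatase genes, 3 receptor genes upstream of STAT5 and 6 interferon, IL-10 and IL-22 receptor genes that were tested passed the edgeR threshold. Of these 37 genes, 5 had an unadjusted p below 0.05 and 1, Lifr (log2 fold change 0.25), was called by DESeq2. Of 22 STAT3 target genes tested, 1 was higher and 2 were lower, against 1.1% of all genes in each direction. Cebpd, a transcription factor of the acute-phase response, was higher (0.37 on the log2 scale). The AP-1 gene Junb (-0.47) and the haptoglobin gene Hp (-0.28) were lower. The Cebpd call was lost in 4 and the Hp call in 5 of 8 fits that left out 1 library, while the Junb call held in all 8. Of 15 immediate-early genes, Jun was higher (0.40) and Junb and Egr1 (-0.93) were lower. Immediate-early genes respond to cell handling as well as to signals, and Fos, Junb and Myc are also in the target list. The Jun call was lost without vehicle 1 (edgeR adjusted p 0.0546), and the Egr1 call held in all 8 such fits. Marker sums of other cells overlapped between vehicle and ISRIB, at 16.7 to 25.2 and 10.9 to 24.3 CPM for fibroblasts and 6.69 to 8.39 and 6.08 to 8.89 CPM for macrophages and monocytes. The part of the immediate-early genes in the Socs3 and Pim1 values was not tested.

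The bleomycin comparison set AT2 cells taken 14 days after injury against those of uninjured mice. Osmr, Socs3 and Cish rose, and Socs2 and Pim3 fell. Stat3, Il6st, Il6ra and Pim1 did not pass the test. The SOCS family therefore split, with Socs3 and Cish higher and Socs2 lower. The Socs2 call was lost in 6 of 9 fits that left out 1 library. Outside the members, the receptor genes Lifr, Cntfr and Il11ra1 fell, though the Il11ra1 call was lost in 7 of 9 such fits. Of 20 STAT3 target genes tested, from a list written with earlier results known, 11 rose, against 11.2% of all genes.

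Of the 9 members tested, 5 passed an adjusted p of 0.05 (edgeR, Benjamini-Hochberg over 11223 genes), 3 higher and 2 lower, where 20.5% of all genes tested passed, 11.2% higher and 9.31% lower. The median log2 fold change of the 9 was 0.34 against 0.00 for all genes. The 3 rises had groups that did not overlap, as did 19.7% of all genes (10.4% higher, 9.35% lower), and both falls had overlapping groups. The rises held in all 9 fits that left out 1 library. Without naive 2 or without naive 4 the number called was 3.

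Osmr was the receptor gene among the members that changed. It had 88.2, 91.2, 78.7 and 109 CPM in naive 1 to 4 and 120, 128, 146, 123 and 130 CPM in bleomycin 1 to 5. The lowest bleomycin library exceeded the highest naive one. Means were 91.7 ± 12.6 CPM (n = 4) and 129 ± 10.1 CPM (n = 5), and the rise was 0.50 on the log2 scale (SE 0.12, edgeR adjusted p 0.00606). Il6st, the chain with which OSMR signals, had 236 to 282 CPM in naive and 212 to 278 CPM in bleomycin libraries, a log2 fold change of -0.13 (95% interval -0.35 to 0.10, adjusted p 0.478). Il6ra had only 5 to 42 counts per library and a log2 fold change of 0.48 with an interval of -0.44 to 1.40, so a change of up to 1.40 on the log2 scale could have been missed at this depth.

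Of 4 other receptor genes of the family tested, 3 were called, all lower, where 9.31% of all genes tested were lower. Lifr, the receptor chain for leukaemia inhibitory factor, had 156, 191, 163 and 158 CPM in naive 1 to 4 and 84.6, 89.3, 60.1, 69.6 and 82.5 CPM in bleomycin 1 to 5. No bleomycin library came near a naive one. It fell by 1.11 on the log2 scale (SE 0.13, edgeR adjusted p 8.73e-06), the opposite direction from Osmr. Cntfr, the receptor for ciliary neurotrophic factor, fell from 17.6 ± 6.29 to 5.42 ± 3.80 CPM (log2 fold change -1.63, adjusted p 0.00777), with bleomycin 3 above the lowest naive library. Il11ra1, the IL-11 receptor, was named after its values were seen as the last of the 3 called of 4 tested; it fell by 0.69 on the log2 scale (adjusted p 0.0405), a call lost in 7 of 9 fits that left out 1 library and without the filter on low counts (0.0525).

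Within a library, the Osmr count was 0.479 to 0.690 of the Lifr count in naive cells and 1.41 to 2.43 times it after bleomycin, so the order of the 2 genes' counts turned over. This ratio was chosen after the values were seen and carries no test. It needs no scaling between libraries, and the constant difference in gene length cancels between groups.

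**Figure D3:**
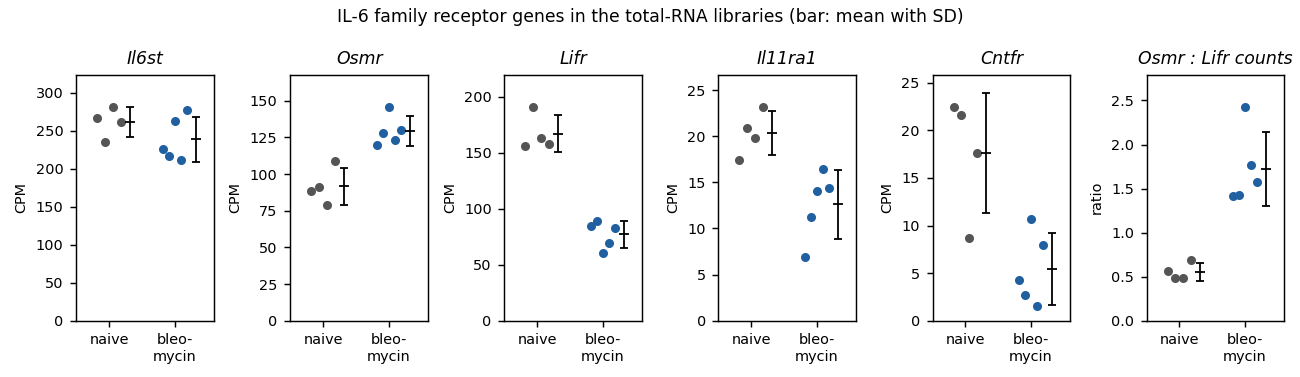
CPM of the shared chain gene Il6st and of 4 receptor genes of the IL-6 family, and the ratio of Osmr to Lifr counts within each library (y axes, linear, from 0), in 4 naive and 5 bleomycin libraries. Points are libraries and bars are means with SD. Osmr lies higher and Lifr lower in every bleomycin library, and the ratio goes from at most 0.690 to at least 1.41.

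The cytokine genes themselves were scarce in the sorted cells. Il6 had at most 16 counts in a total-RNA library, and Osm, which encodes the ligand of OSMR, had 0 counts in all 9. Of 8 cytokine genes only Clcf1 could be tested, and it did not pass (log2 fold change 0.61, adjusted p 0.276). Lif, below the filter and named after its values were seen, had 2, 0, 1 and 0 counts in naive 1 to 4 and 7, 30, 24, 13 and 8 counts in bleomycin 1 to 5. Every bleomycin library had more Lif counts than any naive library, but no test was made.

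Stat3 itself had 260, 269, 247 and 267 CPM in naive 1 to 4 and 251, 295, 272, 328 and 299 CPM in bleomycin 1 to 5. Bleomycin 2 to 5 lay above all naive libraries and bleomycin 1 lay within them. The log2 fold change was 0.15 (95% interval -0.06 to 0.36, adjusted p 0.364), which leaves room for a rise of up to 0.36. Of the 4 JAK genes, Jak3 rose from 15.2 ± 1.40 to 25.1 ± 4 CPM (log2 fold change 0.71, adjusted p 0.0108), while Jak1, Jak2 and Tyk2, at 0.03 to 0.10 on the log2 scale, did not pass. None of 5 other STAT genes tested passed in edgeR, where 2 had an unadjusted p below 0.05, or in DESeq2.

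Socs3 rose. It had 56.4, 37.6, 50.4 and 68.0 CPM in naive 1 to 4 and 78.6, 90.6, 82.1, 86.3 and 70.8 CPM in bleomycin 1 to 5. The lowest bleomycin library lay just above the highest naive one. The mean went from 53.1 ± 12.6 to 81.7 ± 7.57 CPM, a log2 fold change of 0.63 (SE 0.15, edgeR adjusted p 0.00645). In the other experiment, with its own controls and kit, the log2 fold change of Socs3 after ISRIB was -0.76; the difference between the 2 changes was not tested.

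Cish, a feedback inhibitor induced through STAT5, showed the largest log2 fold change of the 9 members tested. It had 12.7, 13.9, 16.8 and 14.3 CPM in naive 1 to 4 and 33.6, 20, 24.6, 37.7 and 19.6 CPM in bleomycin 1 to 5. Bleomycin 1 and 4 were high and the other 3 were lower, but all lay above the naive libraries. Cish rose by 0.89 on the log2 scale (SE 0.22, edgeR adjusted p 0.00818). After ISRIB the same gene had a log2 fold change of -0.07.

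Socs2, also a STAT5-linked inhibitor, went the other way. It had 144, 189, 129 and 199 CPM in naive 1 to 4 and 117, 111, 132, 65.6 and 142 CPM in bleomycin 1 to 5. Bleomycin 4 was lowest, and bleomycin 3 and 5 lay within the naive range. The log2 fold change was -0.53 (SE 0.18, edgeR adjusted p 0.0413). This call was lost in 6 of 9 fits that left out 1 library: naive 1 (adjusted p 0.0517), naive 2 (0.134), naive 4 (0.158), bleomycin 1 (0.0506), bleomycin 2 (0.0628) or bleomycin 4 (0.0571).

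The Cish count was 0.072 to 0.131 of the Socs2 count in naive libraries and 0.139 to 0.575 of it after bleomycin, a ratio also chosen after the values were seen. Bleomycin 4, with the highest Cish and lowest Socs2, had the highest ratio, and bleomycin 5 was just above the naive range. Socs1 had 0 to 1 counts in naive and 0 to 5 counts in bleomycin libraries. Socs4 to Socs7, which were not members, had log2 fold changes of -0.26 to -0.05 and none passed.

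Of the PIM genes, Pim3 fell and Pim1 did not pass the test. Pim3 had 28.2, 31.4, 17.4 and 33.1 CPM in naive 1 to 4 and 13, 20, 17.5, 16.4 and 14.3 CPM in bleomycin 1 to 5. Naive 3 lay among the bleomycin libraries and the other naive libraries above them. Pim3 fell by 0.76 on the log2 scale (SE 0.21, edgeR adjusted p 0.0136). The call was lost without naive 2 (adjusted p 0.0581) and without naive 4 (0.0666).

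Pim1 had 29.9, 28.4, 24.6 and 27.7 CPM in naive 1 to 4 and 29.9, 43.9, 39.2, 28.8 and 32.6 CPM in bleomycin 1 to 5. Bleomycin 2 and 3 were high, bleomycin 1 was level with the highest naive library and bleomycin 4 lay within the naive range. The log2 fold change was 0.34 (SE 0.16), which passed neither before adjustment (edgeR p 0.0507) nor after it (adjusted p 0.152). The Pim1 count was 0.838 to 1.41 times the Pim3 count in naive libraries and 1.75 to 2.31 times it after bleomycin, again a ratio picked after the values were seen.

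**Figure D4:**
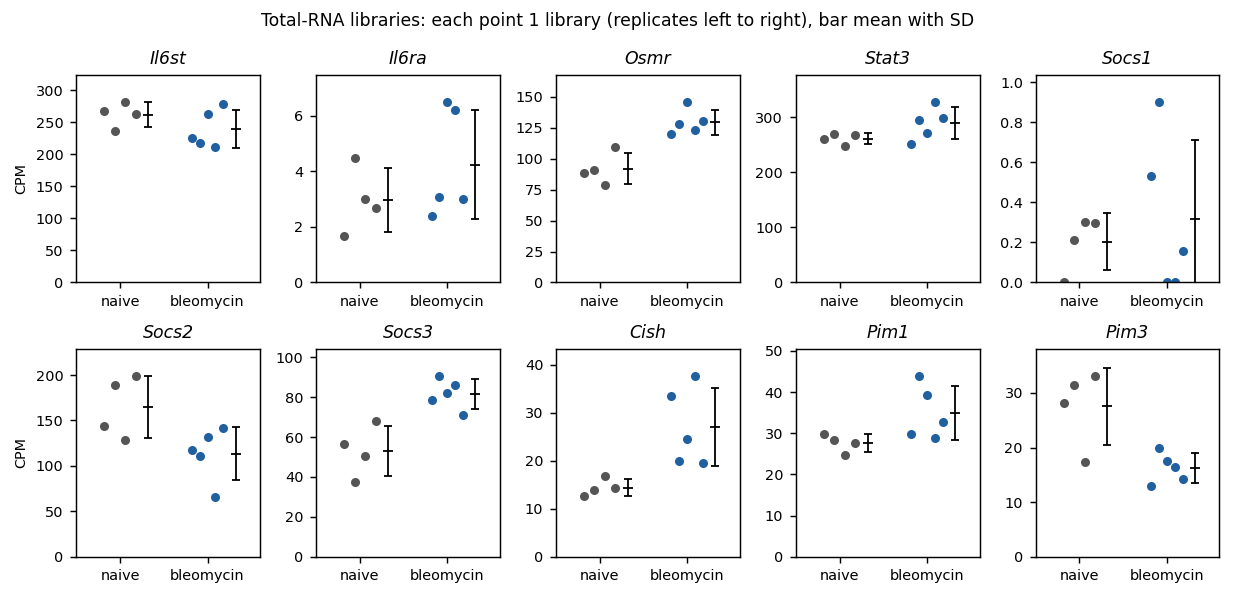
CPM of each of the 10 genes (y axes, linear, from 0) in the 4 naive and 5 bleomycin total-RNA libraries. Each point is 1 library in replicate order, and the bar is the mean with SD. Osmr, Socs3 and Cish lie higher in every bleomycin library, while Socs2 and Pim3 have lower means with overlapping groups.

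Among known STAT3 target genes, 11 rose and 1 fell of 20 tested, where 11.2% and 9.31% of all genes did, and their median log2 fold change was 0.70 against 0.00. The list was written with earlier results of these data known, and leaving out single libraries gave 9 to 12 rises. The iron-binding acute-phase gene Lcn2 rose from 186 ± 22.4 to 1040 ± 309 CPM (log2 fold change 2.49, SE 0.19, edgeR adjusted p 1.44e-07). Birc5, which encodes the mitotic protein survivin, rose from 0.92 ± 0.77 to 8.38 ± 6.92 CPM (3.21, SE 0.73, adjusted p 0.00388), with 0 to 6 counts per naive library and 20.1 CPM in bleomycin 4. Fos, an AP-1 gene, was the 1 that fell, by 0.95 on the log2 scale (SE 0.16, adjusted p 3.81e-04).

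The other 9 rises, named after their values were seen, covered several functions. They were the metalloreductase gene Steap4 (2.09), the secreted glycoprotein gene Lrg1 (1.90), the interleukin receptor gene Il4ra (1.61), the cell cycle gene Ccnd1 (1.30), the adhesion gene Icam1 (0.91), the lipopolysaccharide-binding protein gene Lbp (0.85), the transcriptional coregulator gene Bcl3 (0.82), the growth factor gene Vegfa (0.58) and the survival gene Bcl2l1 (0.58), all log2 fold changes. The Vegfa call was lost in 4 and the Bcl3 call in 2 of 9 fits that left out 1 library. Of the 8 targets not called, also named after their values were seen, 5 lay near 0. These were Junb (-0.04), Mcl1 (0.02), Cebpd (-0.05), Hif1a (-0.01) and Hp (0.09). Fgg (0.95), Cebpb (0.45) and Myc (-0.59) lay further from 0 and did not pass either. Junb, Cebpd and Hp were the 3 targets that passed after ISRIB.

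**Figure D5:**
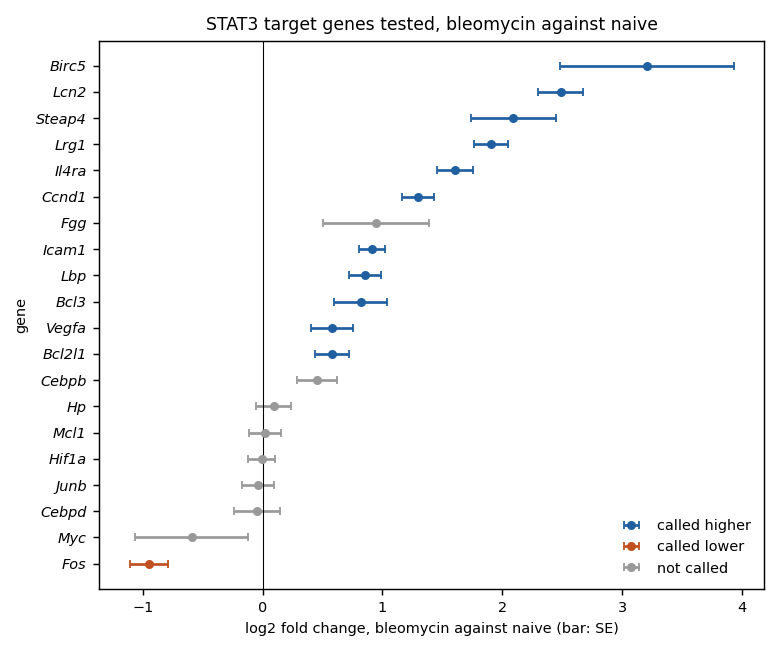
Log2 fold change after bleomycin (x axis, linear, bars are SE) of the 20 STAT3 target genes tested, one per row. Colour marks the edgeR call: 11 higher, 1 lower (Fos) and 8 not called. The changes run from -0.95 for Fos to 3.21 for Birc5.

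Of the negative regulators outside the SOCS family, 1 of 8 tested was called, where 20.5% of all genes tested were. It was Ptpn2, a phosphatase that acts on JAKs and STATs, which rose from 30.5 ± 6.45 to 45.8 ± 6.95 CPM (log2 fold change 0.60, edgeR adjusted p 0.0159). Its call was lost without naive 3 (0.0717) or naive 4 (0.0567). Of 6 interferon, IL-10 and IL-22 receptor genes tested, Ifngr2 rose (0.93, adjusted p 0.00395), and so did Ifnar1 (0.42, adjusted p 0.0380), the latter lost in 6 of 9 fits that left out 1 library, with DESeq2 (0.0514), without the filter on low counts (0.0820) and with replicate numbers as a block (0.0822). Neither receptor gene upstream of STAT5 that was tested, Csf2ra at -0.04 and Ghr at -0.18, passed.

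Markers of some other cells moved with the bleomycin group. Over all genes tested, 11.2% were called higher and 9.31% lower. Summed over 7 genes, fibroblast markers were at 3.87 to 10.1 CPM in naive and 17.5 to 115 CPM in bleomycin libraries, highest in bleomycin 2, with 3 of 3 tested called higher. Endothelial markers were at 22.4 to 30.9 and 25.1 to 81.9 CPM, with 2 of 6 tested called higher. Alveolar type 1 markers, which AT2 cells can acquire, were at 1090 to 1320 and 1750 to 2300 CPM, with 6 of 8 called higher. Of the 10 AT2 markers, 3 were called higher (Sftpd, Napsa and Cd74) and 1 lower (Etv5). Called or not, 7 of the 10 had negative log2 fold changes, and the median was -0.14. Macrophage and monocyte markers were at 7.05 to 10.1 and 4.75 to 10.3 CPM, with Marco at 0 in all 9 libraries and neither gene tested called. Mesothelial markers were at 0.298 to 5.34 and 3.44 to 20.6 CPM, with the 1 gene tested, Msln, called higher. Airway markers were at 453 to 883 and 539 to 943 CPM, with 2 of 5 tested called higher (Foxj1 and Tubb4b). The part of these marker shifts in the members' changes was not tested.

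Of 15 immediate-early genes tested after bleomycin, 6 fell and 2 rose, where 9.31% and 11.2% of all genes did. Among the falls was Fos, counted also as the STAT3 target gene that fell. Dusp1, a MAP kinase phosphatase gene, fell by 1.21 and Ier2 by 1.03 on the log2 scale (edgeR adjusted p 4.82e-06 and 3.88e-04). Ier3 rose (1.10, adjusted p 0.0212) and so did Atf3 (0.69, adjusted p 0.0484), calls lost in 3 and 7 of 9 fits that left out 1 library. Of the falls, the Fosb call was lost in 7 of these fits (adjusted p up to 0.184) and the Zfp36 call in 2 (up to 0.0984), while those of Dusp1, Ier2, Jun and Fos held in all 9. Summed, the 16 genes were at 983 to 1130 CPM in naive and 579 to 808 CPM in bleomycin libraries.

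Of 8725 other genes compared over all 17 libraries, each centred within its kit, those whose log2 levels stayed closest to Socs3 were Gadd45g (root mean square difference 0.204), Bmp4 (0.212) and Myh10 (0.227), where the median gene was at 0.459. Gadd45g, a stress-response gene, had 43.7 to 50.3 CPM in vehicle and 23.0 to 31.3 CPM in ISRIB libraries, and 22.8 to 28.0 CPM in naive and 34.8 to 45.2 CPM in bleomycin libraries. Closest to Pim1 were Id2 (0.169), Dusp6 (0.193) and Nuak2 (0.199), against a median of 0.424. Id2, an inhibitor of helix-loop-helix factors, had 181 to 264 CPM in vehicle and 146 to 162 CPM in ISRIB libraries, and 133 to 146 CPM in naive and 113 to 195 CPM in bleomycin libraries. Its groups overlapped in the second experiment, as those of Pim1 did. Likeness over these libraries follows the groups and is a description with no test.

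In the GRCm38 annotation (GENCODE M21, positions counted from 1 over the whole gene), Socs3 (ENSMUSG00000053113) lies on chromosome 11 from 117966079 to 117970047, Osmr (ENSMUSG00000022146) on chromosome 15 from 6813577 to 6874969 and Cish (ENSMUSG00000032578) on chromosome 9 from 107296026 to 107302784. Socs2 (ENSMUSG00000020027) lies on chromosome 10 from 95385362 to 95417180, Pim3 (ENSMUSG00000035828) on chromosome 15 from 88862186 to 88865726 and Pim1 (ENSMUSG00000024014) on chromosome 17 from 29490753 to 29496112. Counts were made per gene, over exons of the authors' own gene models. Exons of Pim1 overlap an opposite-strand model (Gm26885) by 488 bases and those of Cish overlap 2 such models by 740 bases. These models had at most 11 counts in any library, against at least 82 for Pim1 and 38 for Cish. Exons of Stat3 overlap opposite-strand exons of Stat5a by 72 bases, and those of Il6ra overlap Gm42809 by 242 bases. Stat5a had at most 200 counts in any library, against at least 775 for Stat3. Whether counting used strand is not stated in these sources, so levels of Pim1, Cish, Stat3 and Il6ra are less certain.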

How the data were processed

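The authors deposited 1 table of unnormalized counts per kit, with Ensembl gene IDs as rows. That they are raw is inferred from the whole numbers and unequal totals. The submitters' processing notes list bcl2fastq 2.19.1, FastQC, Trimmomatic 0.36, STAR 2.6.0, HTSeq 0.11.2 and the build mm10; which settings and annotation were used is not given. Every column was matched to a library by its title. Symbols, positions and exon lengths came from GENCODE M21 (GRCm38), promoter windows from RefSeq (GRCm38.p6).

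The kits were never fitted together. Low genes were removed by filterByExpr (minimum count 10, minimum total 15) and libraries scaled by TMM. Group was the sole term of a quasi-likelihood fit (edgeR 4.0.16, R 4.3.3), whose F test was adjusted by Benjamini-Hochberg over all genes tested. The SE is the unshrunk log2 fold change over the root of F, and 95% intervals are normal ones from it, somewhat narrower than the F test would give. CPM use effective library sizes. The procedure was also run on counts simulated from its own fitted dispersions with independent libraries. Such a run cannot check the real structure between replicates, and nothing is read from it here. Alternatives were DESeq2 1.42.0, RLE factors, no filter, replicate numbers as a block and leaving out each library.

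Members and lists were chosen with earlier results of these data known. Genes outside the members were named where called with a mean of at least 5 CPM, at most the 2 largest rises and 2 largest falls per list, plus the 3 genes most like Socs3 and Pim1. Further genes, among them all uncalled ones, were named after their values were seen. Values of some pathway genes are not reported here.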

Additional observations from a re-analysis of the deposited data

Results flagged for a closer look

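Socs2 was at 283 CPM in vehicle 4, while the nearest of the other 3 vehicle libraries was at 228 CPM. The gap was 0.864 of the group's range, above Dixon's 95% critical value for 4 libraries. Chance alone flags about 1 in 20 groups, and the members were checked in all 4 groups. Without vehicle 4 the log2 fold change of Socs2 after ISRIB was 0.34, against 0.25 with it.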

How the results depend on the processing

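The number of genes called after ISRIB was 265 and rose to 648 without the filter on low counts, where 4 members (Osmr, Socs2, Socs3 and Pim1) were called. It was 86 to 269 when 1 library was left out, lowest without vehicle 1 (86), vehicle 2 (102) and ISRIB 4 (159), while 2 to 3 members were called; as this comparison chose the members, nothing is read from those counts. After bleomycin 1554 to 2584 genes and 3 to 5 members were called when 1 library was left out. With replicate numbers as a block 277 genes were called after ISRIB and 2187 after bleomycin, and 2 and 5 members. The block ended the calls of Fosb (0.0536), Ifnar1 and Atf3 (0.0738) and no other call of a member or pathway gene. Same-numbered libraries deviated together weakly (correlations -0.11 to 0.08 and -0.04 to 0.05). Pairing by number was not seen, though so few libraries cannot exclude it.

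STAT3 target genes called after bleomycin numbered 10 to 13 over all alternatives, a count added after seeing the data. Of 619 values of 49 single-gene results under the alternatives, 612 kept their direction. The 7 others were Pim3, Cish and Il6ra after ISRIB, none called there. Birc5 fell below the filter in some fits that left out a library and has no value there. Depth limits Socs1, Il6ra and the cytokine genes.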
